A study of Homo sapiens with 62 samples.

Results

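The 10 genes described here encode chemokines, which guide migrating cells, and chemokine receptors, which place B cells in tissues. They are the chemokine genes CCL22, CCL17, CCL5, CXCL9, CXCL10 and CXCL16 and the receptor genes CCR7, CXCR4, CXCR5 and CCR6. They were found by gene symbol, and each symbol had 1 row among the 49115 gene rows that were kept. The libraries came from GM12878, an established B-lymphoblastoid cell line immortalised with Epstein-Barr virus, and were made with the SMART-seq method, which copies and amplifies whole transcripts from very little RNA. Of the 62 samples, the 20 analysed here were splits, that is, pools of 10 cells that were divided into 10 portions and carried through the protocol as though each was a cell. The splits formed 2 sets of 10 with the same cell line, protocol and sequencer. Titles of the numbered set run from 1 to 10, and those of the unnumbered set carry library numbers instead (232, 233 and 246 to 253). The labels do not say that each set was 1 pool, nor that the pools came from separate cultures, so every p-value below measures only the spread between these splits, which may be technical. Of the 10 unnumbered records, 9 (all but split 247) carry a remark that newer metadata replace them.

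Chemokines are small secreted proteins that guide migrating cells along a gradient, and their receptors are membrane proteins that signal through inhibitory G proteins. CCR7 directs lymphocytes into lymph nodes towards CCL19 and CCL21, CXCR5 directs B cells into follicles towards CXCL13, CXCR4 holds cells where CXCL12 is made, and CCR6 answers to CCL20. Activated B cells also secrete chemokines: CCL17 and CCL22 attract T cells that carry CCR4, CCL5 attracts T cells, CXCL9 and CXCL10 act on CXCR3 and are induced by interferon, and CXCL16 is made as a membrane protein that ADAM10 cuts free to act on CXCR6. In B cells immortalised with Epstein-Barr virus, the viral protein LMP1 is known to induce CCL17 and CCL22.

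The upstream sequences of 3 of the genes are shown because they mark the extremes of the set. CXCL9 and CXCL10 are neighbours on chromosome 4 that respond to the same cytokine, yet CXCL9 was listed at 0 in every split while CXCL10 passed 1 FPKM in 9 of the 20 splits. CCL22 passed 1 FPKM in all 20. FPKM (fragments per kilobase of transcript and per megafragment mapped) is scaled by transcript length, so it sets genes on a scale per length. For CCL17, CCL5, CCR7 and CCR6 the number of fragments behind 1 FPKM, as the confidence bounds imply it, varied between splits after allowance for depth. Comparisons of their levels between splits, between the sets and with other genes thus also rest on the authors' assignment of fragments to transcripts. The sequences run from 250 bases before to 50 bases after the annotated start of the gene, are written on the strand of the gene, and come from RefSeq on GRCh38.p14. Capitals mark every match, on either strand, to the kappa-B consensus, to the interferon-response core GAAANNGAA or to TATAAA, as in a TATA box.
CXCL10, chr4:76023448-76023747, minus strand: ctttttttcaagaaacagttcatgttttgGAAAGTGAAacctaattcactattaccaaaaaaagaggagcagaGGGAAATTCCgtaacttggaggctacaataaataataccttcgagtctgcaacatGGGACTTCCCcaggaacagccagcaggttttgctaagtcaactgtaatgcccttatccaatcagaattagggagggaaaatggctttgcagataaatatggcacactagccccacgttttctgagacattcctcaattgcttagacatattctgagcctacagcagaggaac
CXCL9, chr4:76007460-76007759, minus strand: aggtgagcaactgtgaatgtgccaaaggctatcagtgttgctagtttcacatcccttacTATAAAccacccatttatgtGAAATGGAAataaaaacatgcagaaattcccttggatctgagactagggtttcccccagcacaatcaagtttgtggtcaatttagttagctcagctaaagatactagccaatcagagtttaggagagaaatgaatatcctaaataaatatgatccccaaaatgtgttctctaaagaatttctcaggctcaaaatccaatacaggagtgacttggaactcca
CCL22, chr16:57358533-57358832, plus strand: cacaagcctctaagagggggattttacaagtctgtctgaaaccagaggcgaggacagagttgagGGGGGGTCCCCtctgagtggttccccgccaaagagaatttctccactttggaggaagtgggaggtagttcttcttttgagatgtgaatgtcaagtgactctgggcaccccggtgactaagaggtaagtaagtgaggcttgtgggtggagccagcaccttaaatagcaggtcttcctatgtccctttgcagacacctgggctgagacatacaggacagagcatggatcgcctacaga
The CXCL10 window held an interferon-response match that began at -221 from the start and kappa-B matches that began at -177 and -122, of which the last matches on both strands. The CXCL9 window held an interferon-response match at -171, a TATAAA match at -191 and no kappa-B match. The CCL22 window held overlapping kappa-B matches at -186 and -185, each on both strands. Of all 35116 promoter windows in the table, 11.3% held the kappa-B consensus, 8.11% the interferon-response core and 11.5% TATAAA. Of the 10 genes 6 had a window in that table. The motif matches describe these letters and were not set against the measured levels.

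Estimated depth was 11.8 to 20.6 megafragments in the numbered splits. In the unnumbered splits it was 23.3 to 38.7 megafragments, except for 7.79 in split 252 and 0.128 in split 247. A gene counted as listed in a split at 1 FPKM or more. At that level 3771 to 7671 genes were listed in numbered splits and 2942 to 4792 in unnumbered splits. The cell type was checked on marker genes. All 7 B cell markers reached 1 FPKM in at least 1 split, and their summed level was 7586 to 12940 FPKM in numbered splits and 3781 to 6367 FPKM in unnumbered splits. CD74, HLA-DRA, MS4A1 and CD79A were higher in numbered splits (limma on log2(FPKM + 1), adjusted p from 1.61e-05 to 0.00401). Of the 6 T cell markers, 3 reached 1 FPKM, and they summed to 3.27 to 239 FPKM in numbered splits and 10.3 to 590 FPKM in unnumbered splits, mostly from TRAC (limma adjusted p = 0.187), while CD3D was at 0 in all 20. The monocyte markers summed to 1.46 to 53.8 FPKM in numbered splits and 0.903 to 1.65 FPKM in unnumbered splits, with CD14, FCGR1A and S100A8 at 0 throughout. CSF1R carried nearly all of that sum. It was at 1 FPKM or more in 10 numbered and 8 unnumbered splits and did not pass with limma (adjusted p = 0.349), but passed as higher in numbered splits by the rank-sum test. The NK markers summed to at most 92.2 FPKM in numbered splits and 243 FPKM in unnumbered splits, almost all from NKG7, with GNLY and KLRF1 at 0 throughout. The fibroblast markers stayed at or below 1.19 FPKM in numbered splits and 2.61 FPKM in unnumbered splits. The part of these differences in the results below was not tested.

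CCL22, CCL5 and CCR7 were listed in all 20 splits. CCL17, CXCR4 and CXCL10 were listed in some splits and at or near 0 in others. CXCR5, CCR6 and CXCL16 appeared in 1 or 2 splits of the numbered set, and CXCL9 was at 0 everywhere. Between 4 and 6 of the 10 genes were listed in each numbered split, and between 3 (split 247) and 6 in each unnumbered split. Over all genes and splits, 48 of 100 numbered values and 49 of 100 unnumbered values reached 1 FPKM. The numbers were alike, but the genes behind them were not, since CCL17 supplied 7 of the numbered values and 2 of the unnumbered values, while CXCL10 supplied 0 and 9.

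**Figure D1:**
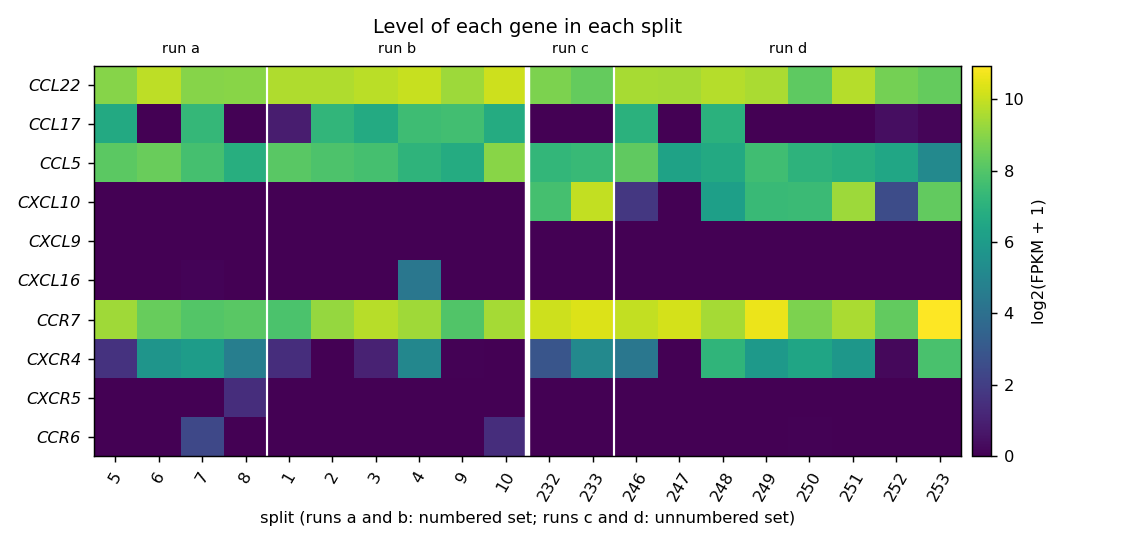
Heat map of the level of each of the 10 genes (rows, chemokines above receptors) in each of the 20 splits (columns, grouped by run of laboratory experiment numbers, numbered set left), coloured by log2(FPKM + 1). CCL22, CCL5 and CCR7 are bright in every column, CXCL10 is dark in all 10 numbered splits, and CXCL9 is dark in all 20.

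CCL22 (chromosome 16, 57392684 to 57400102 in the deposited files, ENSG00000102962.4) was the most abundant chemokine gene of the 10 in both sets. Its level ran from 488 FPKM (split 7) through a median of 793 to 1088 FPKM (split 10) in numbered splits, and from 299 FPKM (split 250) through a median of 575 to 843 FPKM (split 248) in unnumbered splits. It averaged 766 ± 222 FPKM in numbered splits and 565 ± 226 FPKM in unnumbered splits (SD, n = 10 each). The sets overlapped over most of their range. By mean level it ranked 270 of 9955 genes with a mean of 1 FPKM or more in the numbered set and 344 of 8715 in the unnumbered set. Even in split 247, the shallowest library, the confidence bounds correspond to 247 fragments of CCL22.

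CCL17 (chromosome 16, 57438679 to 57449974) lies near CCL22 and encodes the other ligand of CCR4, and its level went by split rather than in a continuous range. In the numbered set it was between 98.7 and 197 FPKM in 7 splits (2, 3, 4, 5, 7, 9 and 10) and at 0.849, 0.036 and 0 FPKM in splits 1, 8 and 6. In the unnumbered set it was at 127.5 FPKM in split 246 and 127 FPKM in split 248, and below 1 FPKM in the other 8. A level near 100 FPKM or above was thus seen in most numbered splits and in few unnumbered ones, and hardly any value lay between 1 FPKM and that level. In split 247 3 fragments of CCL17 would correspond to 58.6 FPKM, so the 0 there says little. In split 253 the bounds correspond to 43.9 fragments at 0.1145 FPKM, so a level below 1 FPKM there rests on the assignment of fragments to transcripts. CX3CL1, which lies between CCL22 and CCL17 in the genome and was looked up after the values were seen, did not pass 0.295 FPKM in any split.

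CCL5 (chromosome 17, 34198495 to 34207797), which attracts T cells and other leukocytes, was present in every split at a lower level than CCL22. It ran from 105 FPKM (split 9) through a median of 225 to 508 FPKM (split 10) in numbered splits, and from 34.6 FPKM (split 253) through a median of 123 to 307 FPKM (split 246) in unnumbered splits. The means were 244 ± 121 FPKM in numbered splits and 136 ± 75.3 FPKM in unnumbered splits (SD, n = 10 each), and the sets overlapped. The CCL5 level was below that of CCL22 in all 20 splits, with a median ratio of 0.326 in numbered splits and 0.239 in unnumbered splits.

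CXCL10 (chromosome 4, 76942273 to 76944650), the interferon-induced ligand of CXCR3, was listed at 0 in all 10 numbered splits. In unnumbered splits 232 and 233 it was at 210 and 972 FPKM. In unnumbered splits 246, 248, 249, 250 and 251 it was at 2.45, 71.7, 168, 172 and 650 FPKM. In splits 252 and 253 it was at 4.8 and 315 FPKM, and in split 247 at 0. All unnumbered values but the last were thus above all numbered values, over a range from 2.45 to 972 FPKM. Depth bears on the zeros in different ways. In the numbered splits 3 fragments of CXCL10 would correspond to 0.155 to 0.27 FPKM, well under the lowest level above 0 in the unnumbered set, whereas in split 247 they would correspond to 24.9 FPKM, so levels such as those of splits 246 and 252 could not have been seen there. These fragments are amplified copies and not separate molecules, so such limits cover counting error only. Among all kept rows CXCL10 was the 1 gene at 0 in all 10 numbered splits and at 1 FPKM or more in 9 or 10 unnumbered splits, a pattern chosen after the values were seen. The converse pattern held for DUSP2, IGFBP3 and IL18R1.

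CXCL9 (chromosome 4, 76922428 to 76928641), the neighbour of CXCL10 and also a CXCR3 ligand, was at 0 in all 20 splits. CXCL16 (chromosome 17, 4636821 to 4643217) was at 19.4 FPKM in numbered split 4, where the bounds correspond to 375 fragments, at 0.0873 FPKM in numbered split 7, and at 0 in the other 18. With 1 library of 20 above 1 FPKM, no level can be given for CXCL16 beyond that library.

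Among the receptors, CCR7 (chromosome 17, 38710021 to 38721724, ENSG00000126353.3) was the most abundant in both sets. In numbered splits 1 to 10 it was at 226, 590, 859, 662, 664, 340, 254, 281, 250 and 709 FPKM. In unnumbered splits 232, 233 and 246 to 253 it was at 1112, 1328, 984, 1214, 702, 1595, 441, 739, 319 and 1963 FPKM. Of the unnumbered splits, 6 lay above the highest numbered split, and the other 4 (248, 250, 251 and 252) lay inside the numbered range. Split 247 is among the 6, but its bounds run from 435 to 1993 FPKM on about 9.71 fragments, so its place is uncertain. The fragments behind 1 FPKM of CCR7, per megafragment, varied from 0.468 to 1.51 between splits. The order of the splits and the gap between the sets thus also rest on the assignment of fragments to transcripts. The means were 484 ± 237 FPKM in numbered splits and 1040 ± 513 FPKM in unnumbered splits (SD, n = 10 each). CCR7 ranked 405 of 9955 genes by mean level in the numbered set and 194 of 8715 in the unnumbered set.

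CXCR4 (chromosome 2, 136871919 to 136875735), the receptor of CXCL12, was lower than CCR7 in every split and uneven. Its level ran from 0 through a median of 1.84 to 64.6 FPKM in numbered splits, of which 4 (splits 4, 6, 7 and 8) reached 10 FPKM. It ran from 0 through a median of 44.8 to 223 FPKM in unnumbered splits, of which 7 reached 10 FPKM. The sets overlapped, with 0 in numbered splits 2 and 10 and in unnumbered split 247. In split 247 3 fragments of CXCR4 correspond to 16 FPKM, so most of the numbered levels would have been out of reach there.

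The other receptors were near 0. CXCR5 (chromosome 11, 118754475 to 118768508), the follicle receptor, was at 1.67 FPKM in numbered split 8, at 0.0189 FPKM in numbered split 5 and at 0 in the other 18. CCR6 (chromosome 6, 167525295 to 167553184) was at 4.16 FPKM in numbered split 7, 1.66 FPKM in numbered split 10, at most 0.0371 FPKM in 2 others and at 0 in the rest. A level of 1 FPKM of these genes corresponds to at least 35 fragments in every numbered split, by the same estimate.

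**Figure D2:**
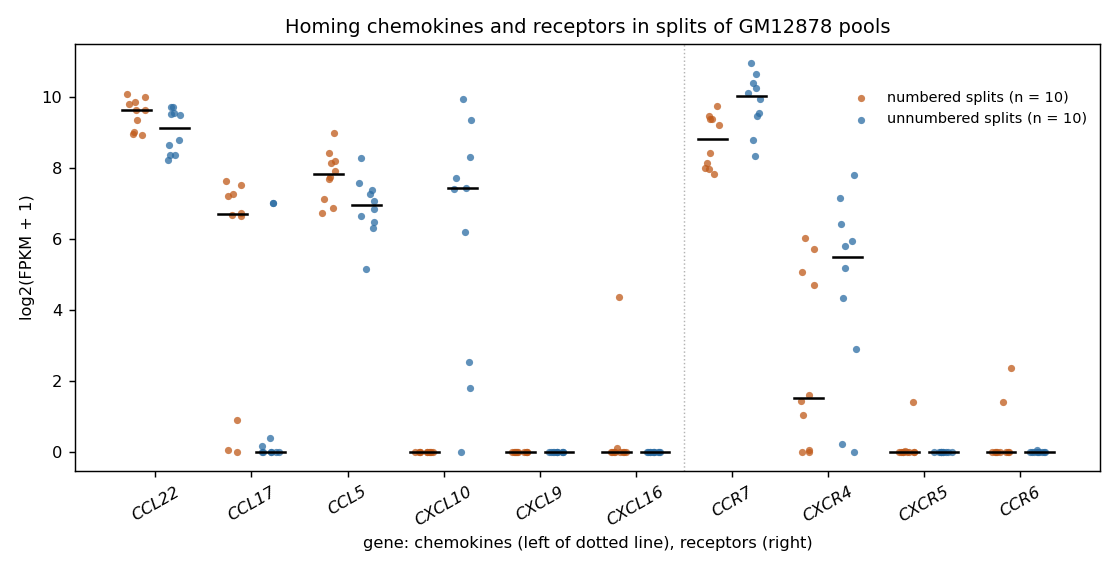
Level of each gene on the log2(FPKM + 1) scale, with 1 point per split, numbered splits left of unnumbered splits, and a black bar at the median of the 10 splits of a set. CCL22, CCL5 and CCR7 lie well above 0 in every split of both sets. CCL17 splits into high values and values near 0, while CXCR4 is spread from 0 upwards with values in between.

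Numbered and unnumbered splits were compared over all genes with limma on log2(FPKM + 1), so differences of low genes are understated. Of the 10 genes, 6 had a mean of 1 FPKM or more over the 20 splits and were tested, CXCL10 only because of its level in the unnumbered set. CXCL10 was the 1 gene of these 6 that passed an adjusted p of 0.05, and it was lower in numbered splits. Over all 10506 genes tested, 1.38% passed as lower in numbered splits, 3.93% as higher and 5.31% in either direction. The log2 difference of CXCL10, numbered minus unnumbered, was -6.07 (SE 1.07, limma adjusted p = 4.35e-04); since the numbered set was at 0 its size depends on the pseudocount, and it was -8.98 with a pseudocount of 0.1. It passed in all 30 alternative fits, with adjusted p from 3.51e-05 without split 247 to 0.0145 in runs b, c and d alone. Most of these fits leave out 1 library and reuse nearly all values, so they are not independent support. With the numbered set at 0 throughout, the direction could not change in any of the 30. As the splits hold mixed lysate, fewer cells that express CXCL10 and less CXCL10 RNA per cell cannot be told apart. The sets also share no run of experiment numbers, differ in depth and may each be 1 pool. A difference between pools or in the handling of the libraries thus cannot be told apart from these either.

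CCR7 had a log2 difference of -1.08 (SE 0.35, limma adjusted p = 0.069) and did not pass, although it lay close to the threshold. The median difference of all genes was 0.35, so relative to it CCR7 stood at -1.44. CCR7 passed, as lower in numbered splits, in 7 of the 30 alternatives. With the levels rescaled to a common sum the adjusted p was 0.0119, with size factors 0.0227, with the trend on transcript length removed 0.0314 and with genes at a mean of 10 FPKM or more 0.0407. Leaving out numbered split 3 gave 0.0478, leaving out unnumbered split 250 gave 0.044 and leaving out unnumbered split 252 gave 0.022. The highest adjusted p was 0.329, in runs b, c and d alone (-0.90). The sign of the CCR7 difference was negative in all 30. All of these fits use the same assignment of fragments to transcripts, on which the CCR7 levels rest.

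The other 4 genes did not pass in the main comparison or in any of the 30 alternatives. CCL17 differed by 3.60 (SE 1.31, limma adjusted p = 0.128), with adjusted p from 0.0577 without unnumbered split 248 to 0.343 without splits 9, 247 and 253. CXCR4 differed by -2.01 (SE 1.14, adjusted p = 0.401), CCL5 by 0.89 (SE 0.43, adjusted p = 0.31) and CCL22 by 0.49 (SE 0.27, adjusted p = 0.368). Relative to the median of all genes the CCL22 difference was 0.14. The SE of CCL17 and CXCR4 exceeded 1 on the log2 scale, so a missed threshold does not show that their levels were alike. At an unadjusted p under 0.05 limma would name CCL17, as higher in numbered splits, and CCR7 beside CXCL10; the rank-sum test passed CXCL10 alone.

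**Figure D3:**
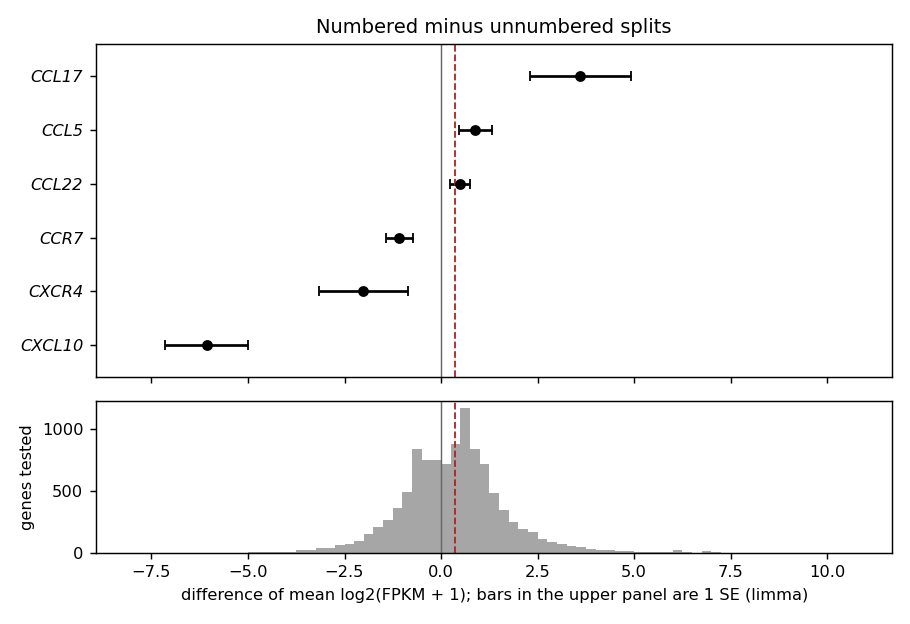
Upper panel, log2 difference (numbered minus unnumbered) of the 6 tested genes with bars of 1 SE from limma; lower panel, the same difference for all 10506 genes tested, as a histogram. The grey line is 0 and the dashed red line the median of all genes, 0.35; CXCL10 lies at -6.07, and the other 5 lie between -2.01 and 3.60.

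The ratio of CCR7 to CCL22 within a split does not depend on the scaling of the library, though it does rest on the assignment of fragments to transcripts. It was 0.284 to 1.34 in numbered splits, with a median of 0.597, and 0.803 to 5.95 in unnumbered splits, with a median of 1.59. CCR7 exceeded CCL22 in 1 of 10 numbered splits (split 5) and in 7 of 10 unnumbered splits (all but 248, 251 and 252). In split 247, among the 7, the CCR7 bounds of 435 to 1993 FPKM include the CCL22 level of 712 FPKM. The ratio of CCR7 to CCL5 had a median of 2.32 in numbered splits and 7.22 in unnumbered splits. These ratios were looked at after the levels were known and were not tested between the sets.

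**Figure D4:**
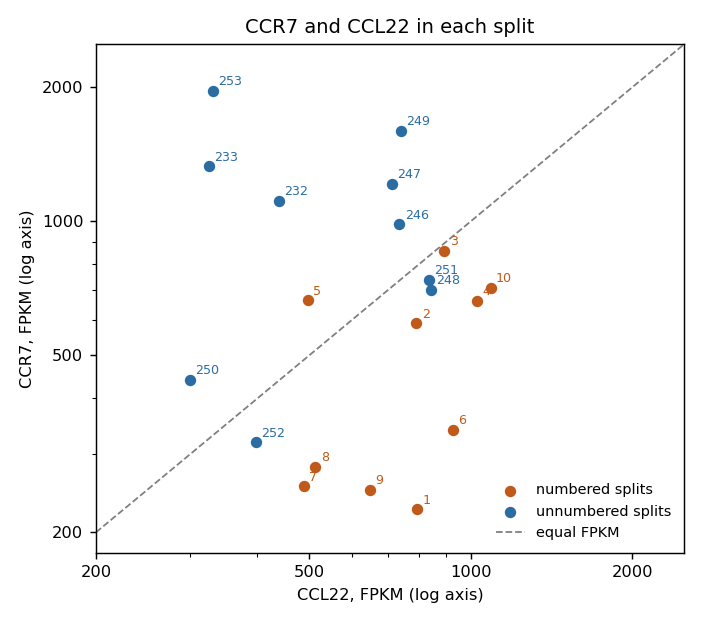
CCR7 against CCL22 in each split, both in FPKM on log axes, with the split's number beside its point and a dashed line where both are equal. Of the numbered splits 1 of 10 lies above the line, and of the unnumbered splits 7 of 10.

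Within each set the genes were ordered by mean level, and neighbours in that order were compared within splits. The test was an exact 2-sided sign-flip permutation test on log2(FPKM + 1), adjusted over the 12 pairs of both sets. The pairs and their directions were taken from the same values, which the p-values do not allow for. In the numbered set the order was CCL22, CCR7, CCL5, CCL17, CXCR4, CXCL16, CCR6, CXCR5. CCL22 exceeded CCR7 in 9 of 10 numbered splits by a mean of 0.77 on the log2 scale (exact permutation adjusted p = 0.0469), and CCR7 exceeded CCL5 in 8 of 10 by 0.97 (adjusted p = 0.0469). CCL5 also exceeded CCL17, and CXCR4 exceeded CXCL16, each in 8 of 10 at the same adjusted p. CCL17 and CXCR4 did not differ beyond their spread (adjusted p = 0.177), nor did CXCL16 and CCR6 (1.0) or CCR6 and CXCR5 (0.818). In the unnumbered set the order was CCR7, CCL22, CXCL10, CCL5, CXCR4, CCL17. CCR7 exceeded CCL22 in 7 of 10 unnumbered splits by 0.80 (exact permutation adjusted p = 0.0469), CCL22 exceeded CXCL10 in 9 of 10 and CXCR4 exceeded CCL17 in 7 of 10, at the same adjusted p. CXCL10 and CCL5 (0.527) and CCL5 and CXCR4 (0.0527) did not differ beyond their spread. By the mean of log2(FPKM + 1), the scale of the test, CCL5 stood above CXCL10 in the unnumbered set (difference 0.83, in 5 of 10 splits). All 7 differences that passed were close to the threshold. With split 247 and run a left out, 0 of 11 passed. With 6 numbered splits the smallest exact p is 0.0312 before adjustment, so the lost calls of the numbered set say little about its order. In the unnumbered set 9 splits remained, so that limit does not apply. There the exact permutation p before adjustment was 0.0547 for CCR7 over CCL22, 0.0508 for CCL22 over CXCL10 and 0.0273 for CXCR4 over CCL17 (adjusted p = 0.11 each). The log2 differences were then 0.82 for CCL22 over CCR7 in numbered splits (6 of 6), 1.16 for CCR7 over CCL5 in numbered splits (5 of 6) and 0.81 for CCR7 over CCL22 in unnumbered splits (6 of 9).

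The spread between splits was set beside that of all genes in the same band of mean level. The coefficient of variation (CV) of CCL22 was 0.289 in numbered splits and 0.399 in unnumbered splits, under the band medians of 0.41 and 0.499. CCL5 was also under them, at 0.498 against 0.708 in numbered splits and 0.555 against 0.852 in unnumbered splits. CCR7 lay above them, at 0.489 against 0.41 in numbered splits and 0.493 against 0.266 in unnumbered splits, where 91.6% of the 202 genes at 1000 FPKM or more varied less. The unnumbered mean of CCR7, 1040 FPKM, lay just over the edge of that band. In the band below, from 300 to 1000 FPKM, the median CV was 0.499 and the upper quartile 0.656. The place of CCR7 in the unnumbered set thus depends on where the band begins. CXCL10 in unnumbered splits had a CV of 1.24, above the band median of 0.852. CCL17 and CXCR4 had CVs above 0.7 in both sets and lay at or under their band medians, but this depended on the measure. By the SD of log2(FPKM + 1), CCL17 lay above its band median, at 3.30 against 2.85 in numbered splits and 2.93 against 2.46 in unnumbered splits. CXCR4 by that SD was at 2.51 against 2.45 in numbered splits, and stayed under the band median in unnumbered splits, at 2.73 against 3.10. In all, 8 of the 11 values were under the band median by CV and 5 of 11 by that SD.

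**Figure D5:**
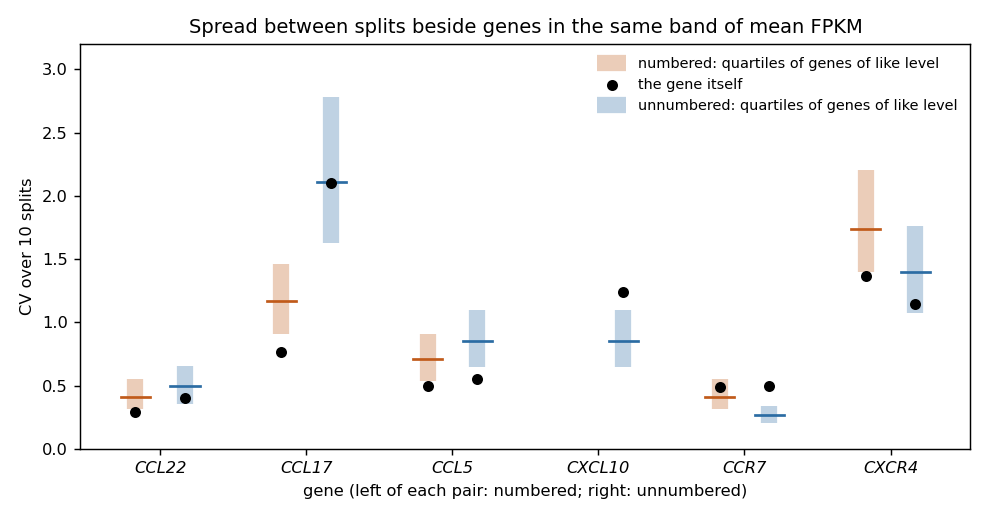
CV over the 10 splits of a set (black points) for the genes with a mean of 10 FPKM or more in that set, numbered left of unnumbered, beside the quartiles (shaded) and median (line) of all genes in the same band of mean FPKM. CCR7 in unnumbered splits, at 0.493, lies above the upper quartile of its band, whose lower edge of 1000 FPKM its mean of 1040 FPKM just passes. CCL22 in numbered splits, at 0.289, lies below the lower quartile of its band.

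The numbered set holds 2 runs of laboratory experiment numbers, run a (splits 5 to 8) and run b (the other 6), and whether these were separate batches is not given. In run a minus run b, 0 of 6 tested genes of the group passed with limma (1, CXCR4, at an unadjusted p under 0.05, and 0 by the rank-sum test), beside 0.0100% (1 gene) of all 9955 tested. CXCR4 was listed in 4 of 4 splits of run a, at 2.01 to 64.6 FPKM, and in 3 of 6 splits of run b, at up to 32.8 FPKM. Its log2 difference was 3.24 (SE 1.38, limma adjusted p = 0.832, unadjusted p = 0.0341). CCL22 averaged 606 ± 214 FPKM in run a (SD, n = 4) and 873 ± 164 FPKM in run b (SD, n = 6), a log2 difference of -0.56 (SE 0.31, limma adjusted p = 0.832). CCL17 was listed in 2 of 4 splits of run a and in 5 of 6 splits of run b (-2.62, adjusted p = 0.832), CCR7 differed by -0.45 (adjusted p = 0.856) and CCL5 by 0.03 (adjusted p = 0.992). In the unnumbered set run c held 2 splits, and runs c and d were not compared by a test. CCR7 was at 1112 and 1328 FPKM there and from 319 to 1963 FPKM in the 8 splits of run d.

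The other genes of the pathway were described by list. Of 42 other chemokine genes, 11 reached 1 FPKM in any split, 20 were at 0 in all 20, and 9 were tested. Of the 9, 7 were higher in numbered splits and 0 lower (0 also at an unadjusted p under 0.05 and by the rank-sum test), beside 3.93% higher among all genes. They were CCL3, CCL4 and their near-identical copies CCL3L1, CCL3L3, CCL4L1 and CCL4L2, which share reads so that their separate levels are uncertain, and CCL20. CCL20, the ligand of CCR6, ran from 0 through a median of 94.9 to 344 FPKM in numbered splits and was at 0 in all 10 unnumbered splits (log2 difference 4.57, SE 1.08, limma adjusted p = 0.00896). CCL20, CCL3L1, CCL3L3 and CCL4 stayed below 1 FPKM in all unnumbered splits, so they entered the test only through the numbered set, as CXCL10 did only through the unnumbered set. For such genes the count is a description. Of the 19 other chemokine receptor genes 4 were tested with limma and 0 passed; CXCR3 and CCR9 had an unadjusted p under 0.05, and the rank-sum test also passed 0. CXCR3, the receptor of CXCL9 and CXCL10, was listed in 5 numbered splits, at up to 65.3 FPKM, and in 0 unnumbered splits, where its highest value was 0.098 FPKM (2.26, SE 0.80, limma adjusted p = 0.117). CCR9 was listed in 4 numbered and 0 unnumbered splits (1.79, adjusted p = 0.224).

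Partners of some of the 10 genes were looked up after the values were seen. CCL19 and CCL21, the ligands of CCR7, were at 0 in all 20 splits, as were the CXCR3 ligand CXCL11 and the CXCL16 receptor CXCR6. CXCL12 did not pass 0.023 FPKM, CXCL13 did not pass 0.194 FPKM, and CCR4, the receptor of CCL17 and CCL22, did not pass 0.667 FPKM in any split. In these libraries the ligand genes of CCR7, CXCR4 and CXCR5 were not listed at 1 FPKM in any split, while CCR7 was listed in all.

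Of 33 genes of chemokine receptor signalling, 32 were kept and 26 tested. In the numbered splits 3 were higher and 0 lower (0 also at an unadjusted p under 0.05 and by the rank-sum test), beside 3.93% higher and 1.38% lower among all genes. The median log2 difference was 0.55 over the 26 and 0.35 over all genes. RGS1, which shortens the signal of inhibitory G proteins, had medians of 170 FPKM in numbered splits and 0 in unnumbered splits (4.92, limma adjusted p = 0.0142). RAC2, a small GTPase of blood cells, had medians of 297 FPKM in numbered splits and 0.141 FPKM in unnumbered splits (4.87, adjusted p = 0.0157), and CORO1A, an actin-binding protein, had medians of 36.2 FPKM in numbered splits and 0.0462 FPKM in unnumbered splits (3.98, adjusted p = 0.00599). The most abundant were the small GTPase genes RHOA (-0.49, adjusted p = 0.554) and CDC42 (-0.35, adjusted p = 0.605). Of 15 genes of adhesion and positioning, 12 were tested with limma and 0 passed, with a median of -0.30; 1 (CD44) had an unadjusted p under 0.05, and the rank-sum test passed 0. With 5.31% of all genes past the threshold, a count of 0 of 12 does not set this list apart. The most abundant were GPR183, a receptor that positions B cells in follicles, with medians of 253 FPKM in numbered splits and 272 FPKM in unnumbered splits (adjusted p = 0.997), and the adhesion receptor CD44 (2.24, SE 0.86, limma adjusted p = 0.158).

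For each of the 4 most widely listed members, the genes with the highest Pearson's r were picked from 2178 genes. The r was that of log2(FPKM + 1) over the 20 splits, after the mean of each set was subtracted. The values of r are descriptions over libraries that share depth and scaling. No chance level was computed for the highest r among so many genes, so a relation to the member is not shown. For CCL22 the genes picked were RPS2P55 (r = 0.756), RPS2P7 (0.732) and RPS2 (0.716). They are a ribosomal protein gene and rows named as its pseudogenes, which can share reads. For CCL5 they were RP11-87M1.1 (0.779), AC009120.6 (0.778) and RP11-110C15.4 (0.768). For CCR7 they were the ribosomal protein genes RPL18 (0.699), FAU (0.687) and RPLP0 (0.673), and for CXCR4 GLTP (0.648), SDHA (0.635) and HNRNPAB (0.631). Among the members themselves r was 0.324 for CCL22 and CCL5, 0.24 for CCL22 and CCR7, 0.101 for CCL5 and CCR7, and between -0.124 and 0.01 for CXCR4 with each of these.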

How the data were processed

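Picked cells were lysed, their RNA was amplified as cDNA (SMARTer), and Nextera libraries were sequenced on an Illumina instrument, per the labels' protocols. The deposited files hold FPKM per gene with confidence bounds, which the authors computed; the submitters' processing notes name TopHat 1.4.1 and Cufflinks 2.0.2. Which genome build these 20 files use is not stated in the sources at hand; coordinates are those of the files, counted from 1. Of 55040 rows, 5797 marked LOWDATA in every file and 128 marked FAIL in at least 1 were left out, which left 49115. No pair of libraries held identical values. The other 42 samples were not analysed here; for 34 of the 62 the labels give no group.

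Groups came from the titles. Depth was estimated from the confidence bounds of mitochondrial protein genes, whose distance from the value gives the number of fragments; fragments of other genes follow in the same way. Genes with a mean of 1 FPKM or more over the 20 libraries were tested with limma 3.58.1 (R 4.3.3, trended variance, pseudocount 1) with Benjamini-Hochberg adjustment over all genes and a threshold of 0.05, and the test was tried on simulated data. Runs were taken from laboratory experiment numbers in the titles. Levels were summarised with Python 3.11.15, numpy 2.4.6, scipy 1.17.1 and pandas 2.3.3. Alternatives changed the scaling, pseudocount, filter, test, covariate, transcript length trend or the libraries used. The genes named were the 10 members, from each list every gene past the threshold (at most 6) and the 2 most abundant, and the 3 genes most like each widely listed member; partners outside this rule are marked as looked up later. The members and lists were chosen with earlier results of these data known. No set test was run. Promoter motifs were defined as the usual kappa-B consensus, an interferon-response core and TATAAA, and these definitions were revised after the matches of a first search had been seen.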

Additional observations from a re-analysis of the deposited data

Results flagged for a closer look

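In 15 groups of 10 values (a gene in a set, with any range) the highest or lowest value was set against the rest on the log2(FPKM + 1) scale. A value far from the others was held by 3 groups, where chance gives about 1 in 20 for continuous values. CXCL16 was at 19.4 FPKM in numbered split 4. CXCR5 was at 1.67 FPKM in numbered split 8. CCR6 was at 0.0371 FPKM in unnumbered split 250. In all 3 groups most of the other values were 0, so the gap to the nearest value takes up nearly the whole range. The rate of 1 in 20 does not apply to such groups.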

How the results depend on the processing

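No paired analysis was possible because the sets share no replicate numbers. CXCL10 passed in all 30 alternatives, and the calls of CCL22, CCL17, CCL5 and CXCR4 between the sets changed in none of the 30. Most alternatives leave out 1 library and reuse nearly all values. As CXCL10 was at 0 in all numbered splits, its direction could not change. The number of members that passed was 1, and it was 2 (with CCR7) with size factors, with a common sum, with genes at a mean of 10 FPKM or more and with the length trend removed, and 1 to 2 when 1 library at a time was left out. Over all genes, 558 passed; the rank-sum test gave 953, of which 522 were shared, and leaving out 1 library at a time gave 524 to 614. The split into higher and lower in numbered splits was 413 and 145, but 286 and 205 with size factors, 345 and 217 with a common sum and 261 and 228 with the length trend removed. Between runs a and b 1 gene passed; size factors gave 2, a pseudocount of 0.1, a mean of 10 FPKM or more and the rank-sum test gave 0, and leaving out 1 library at a time gave 0 to 3. Of the run differences of members that did not pass, CCL5 and CXCL16 changed sign in some alternatives. Of the neighbour pairs in level, which were chosen from the same values, 7 of 12 passed, and 0 of 11 with split 247 and run a left out. There 6 numbered splits allow no exact p below 0.0312 before adjustment. That limit does not apply to the unnumbered set, where 9 splits remained. The differences between CCL22, CCR7 and CCL5 stayed about as large. By CV 8 of 11 values were under the band median, and 5 by the SD of log2(FPKM + 1). The causes were not tested. Fragments per FPKM implied by the bounds, per megafragment, varied from 0.39 to 11.1 for CCL17, 2.72 to 26.1 for CCR6, 0.0553 to 0.786 for CCL5 and 0.468 to 1.51 for CCR7, but from 2.57 to 2.72 for CCL22. The levels of the first 4, and ratios and differences between splits or sets that use them, also rest on how fragments were assigned to transcripts. Depth limits split 247 most: its CCR7 level rests on about 9.71 fragments and its CCL5 level on 6.51.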
